A study of Mus musculus with 12 samples.

Results

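The genes described here mark B cells and the plasma cells that arise from them, in colon RNA of mice with chemically induced colitis. They were taken by symbol from the deposited table of all genes: Cd79a, Cd79b, Ms4a1, Pax5, Cr2 and Cxcr5 for B cells, and Xbp1, Mzb1 and Sdc1 for plasma cells. All 9 were found among the 55335 genes of the table, and all 9 passed the filter of a mean of at least 1 FPKM (mapped fragments scaled by library depth and transcript length) over the 12 libraries. The mice were wild type and all had colitis, provoked by the hapten trinitrobenzene sulfonic acid (TNBS) or by dextran sulfate sodium (DSS) in its place. In each model 3 libraries came from mice given normal saline and 3 from mice given thymopentin, a short synthetic peptide with a stretch of the thymic protein thymopoietin. The sources used here give no strain, sex, age, dose, time or segment of colon, and healthy colon was not analysed here. Ighg2c, the constant region of IgG2c, which some inbred strains carry and others replace by IgG2a, lay between 0.0638 and 2.01 FPKM in the 6 TNBS libraries and between 114 and 265 in the 6 DSS libraries; model and strain cannot be told apart. A difference between the models likewise cannot be told apart from anything else that differed between these experiments.

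B cells recognise antigen through a membrane immunoglobulin whose signal is carried by the CD79a and CD79b chains, under the control of the transcription factor PAX5. In the gut wall they gather in lymphoid follicles, to which the receptor CXCR5 leads them along a gradient of the chemokine CXCL13. Plasma cells switch most of these genes off and turn to secretion: XBP1 expands the endoplasmic reticulum, MZB1 assists the assembly and secretion of antibody, and syndecan 1 (Sdc1, CD138) coats the surface. Of the plasma cell genes, Xbp1 and Sdc1 are also made by gut epithelium, and Mzb1 is also made by some B cells.

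The FPKM of all genes summed to 384431 at the lowest and 532510 at the highest over the libraries. The sources used here give no read totals. Read counts divided by a size factor could be read back from the authors' tables of selected genes and gave size factors between 0.847 and 1.12. Epithelial RNA marked the labelled tissue: Epcam, an adhesion molecule of epithelium, was measured at 834 ± 63.4 FPKM (SD, n = 3) in TNBS saline and 577 ± 72.1 in DSS saline. In whole tissue, fewer cells of a type and less RNA per cell cannot be told apart.

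The promoter sequences of Cd79a and Cr2, whose levels moved together, are shown with that of Xbp1, whose level did not move with them. Each is the 250 bases before the start of the gene, from RefSeq on GRCm38.p6, a later build than the mm9 named for the expression values. They lie at chr7:24897247-24897496 on the plus strand for Cd79a, chr1:195176720-195176969 on the minus strand for Cr2 and chr11:5520391-5520640 on the plus strand for Xbp1. Capitals mark matches to the E box CAGGTG, read by E2A proteins, and to the PU.1 core GAGGAA, on either strand.
Cd79a: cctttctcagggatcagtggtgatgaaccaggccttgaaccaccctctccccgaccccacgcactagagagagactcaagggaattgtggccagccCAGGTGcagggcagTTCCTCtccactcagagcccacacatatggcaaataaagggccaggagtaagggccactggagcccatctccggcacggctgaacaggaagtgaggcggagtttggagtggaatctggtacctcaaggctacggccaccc
Cr2: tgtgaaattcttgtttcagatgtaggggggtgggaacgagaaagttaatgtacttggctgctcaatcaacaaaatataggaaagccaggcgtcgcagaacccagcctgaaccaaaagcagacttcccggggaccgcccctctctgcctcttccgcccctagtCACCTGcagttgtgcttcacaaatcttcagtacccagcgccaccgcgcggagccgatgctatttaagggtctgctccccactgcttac
Xbp1: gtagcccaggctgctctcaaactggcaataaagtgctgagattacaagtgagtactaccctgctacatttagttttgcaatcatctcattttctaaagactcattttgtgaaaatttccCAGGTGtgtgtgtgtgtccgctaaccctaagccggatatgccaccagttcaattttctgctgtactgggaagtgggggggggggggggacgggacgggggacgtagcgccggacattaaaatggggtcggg

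The E box stood at -154 from the start in Cd79a, at -88 on the opposite strand in Cr2 and at -131 in Xbp1. It was found in 17.2% of 32851 mouse promoters of this length, and the PU.1 core in 23.3%. The PU.1 core stood at -140 on the opposite strand in Cd79a and at -230 in Sdc1, and no match overlapped another. The octamer ATGCAAAT (1.6% of promoters), the EBF1 motif (0.779%) and the ER stress element (0.113%) had no match in the searched promoters, those of Cd79a, Cr2, Pax5, Xbp1 and Sdc1. Pax5 had no match to any of these motifs. The E box was thus present both in genes that moved together and in 1 that did not. Promoter entries for 5 of the 9 genes were used; Cd79b, Ms4a1, Cxcr5 and Mzb1 are named only.

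The signalling chains of the B cell receptor were the most abundant of the B cell genes and ranged from under 1 to more than 20 FPKM within a single group. Cd79a was measured at 23.5, 43.6 and 0.681 FPKM in TNBS saline 1, 2 and 3, and at 14.6, 26.0 and 0.731 FPKM in TNBS thymopentin 1, 2 and 3. In DSS saline it was 18.9, 38.8 and 5.63 FPKM, and in DSS thymopentin 4.93, 35.4 and 30.3 FPKM. The third library of each TNBS group was far below the others, and in DSS the low libraries were saline 3 and thymopentin 1, so that every group overlapped every other. Cd79b, the partner chain, followed the same course with 17.6, 30.2 and 0.506 FPKM in TNBS saline, and 12.6, 19.5 and 0.870 in TNBS thymopentin. In DSS it stood at 14.2, 31.8 and 5.76 FPKM with saline and at 6.09, 26.0 and 20.8 with thymopentin.

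Surface receptors of mature B cells showed the same highs and lows. Ms4a1, which encodes CD20, was measured at 5.28, 9.21 and 0.181 FPKM in TNBS saline and at 3.65, 5.67 and 0.132 in TNBS thymopentin. In DSS it was 4.38, 8.59 and 1.09 FPKM with saline and 1.48, 7.01 and 6.21 with thymopentin. The lowest library of each group was the one that was lowest for Cd79a. Cr2, the complement receptor CD21 of follicular B cells and follicular dendritic cells, was 3.52, 4.07 and 0.0301 FPKM in TNBS saline and 1.72, 2.33 and 0.0706 in TNBS thymopentin. In DSS saline Cr2 was 1.77, 1.92 and 0.497 FPKM, and in DSS thymopentin 0.533, 1.92 and 2.61 FPKM. Cr2 was the one B cell gene whose pair of highest values both lay in TNBS saline.

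Pax5, which holds B cells to their identity, and Cxcr5, the receptor for CXCL13, were the least abundant with Cr2. Pax5 was 2.08, 4.16 and 0.0244 FPKM in TNBS saline, 2.01, 2.57 and 0.0375 in TNBS thymopentin, 1.83, 3.73 and 0.483 in DSS saline and 0.332, 3.62 and 2.33 in DSS thymopentin. Cxcr5 was 2.26, 4.58 and 0.0792 FPKM in TNBS saline, 2.19, 3.48 and 0.0289 in TNBS thymopentin, 1.81, 4.49 and 0.555 in DSS saline and 0.483, 3.68 and 2.64 in DSS thymopentin. For these genes too the groups overlapped throughout.

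**Figure D1:**
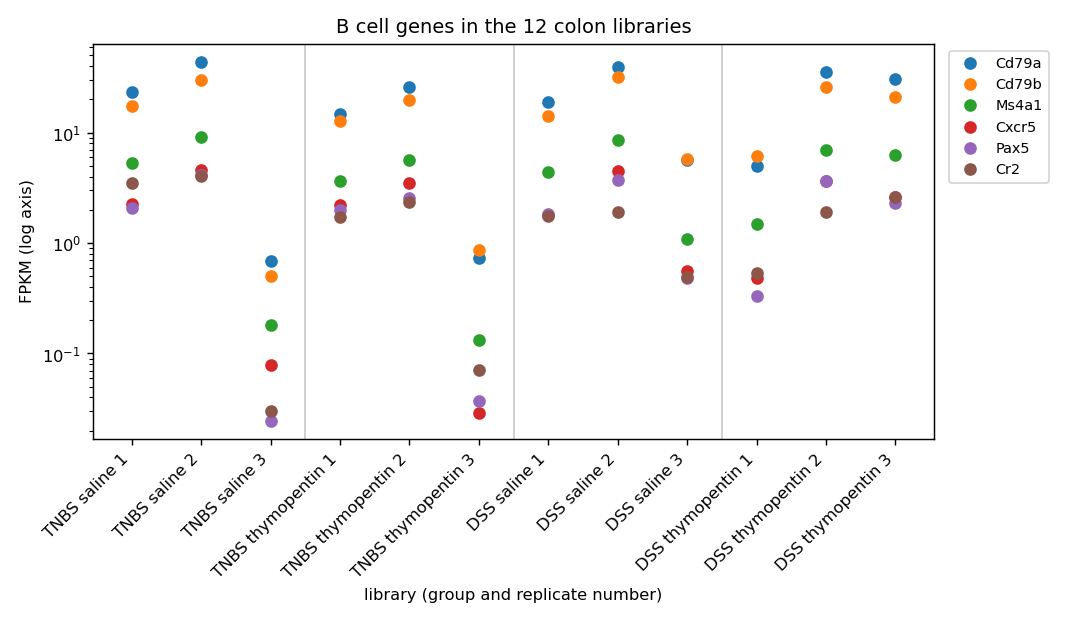
Level of the 6 B cell genes in each of the 12 libraries, in FPKM on a log axis, 1 point per library and gene; vertical lines part the 4 groups. TNBS saline 3 and TNBS thymopentin 3 sit below all other libraries for every one of these genes, and Cd79a reaches at most 0.731 FPKM there against 4.93 to 43.6 in the other 10.

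The 6 B cell genes shared 1 order of libraries. TNBS saline 3 and TNBS thymopentin 3 were the 2 lowest of 12 for 6 of 6 genes, and DSS saline 3 and DSS thymopentin 1 completed the 4 lowest for 6 of 6. TNBS saline 2 was among the 2 highest for 6 of 6 and DSS saline 2 for 5. Within TNBS saline the highest library exceeded the lowest 64.0-fold for Cd79a, 50.9-fold for Ms4a1 and 170-fold for Pax5, values for which the lowest library was close to 0. All 6 genes ranged at least 10-fold within TNBS saline and within TNBS thymopentin, where 2.3% and 1.44% of the 13794 tested genes did. In DSS saline none of the 6, and in DSS thymopentin 1 of them, ranged at least 10-fold, against 1.09% and 0.964% of tested genes. The residual SD on the log2(FPKM + 1) scale was 1.91 for Cd79a, above that of 99.9% of tested genes, and 0.882 for Cr2, the lowest of the 6, above that of 98.1%. The median over tested genes was 0.173.

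Proportions among the B cell genes changed far less than their levels. The FPKM of Cd79b was between 0.689 and 1.23 times that of Cd79a in the 12 libraries, a range of 1.79-fold, while Cd79a itself ranged 64.0-fold. Ms4a1 stood at 0.181 to 0.300 times Cd79a. Pax5, Cr2 and Cxcr5 varied more against Cd79a, 3.84-fold, 3.39-fold and 3.80-fold, and the lowest proportion of each lay in TNBS saline 3 or TNBS thymopentin 3, where they measured under 0.1 FPKM.

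Genes outside the members that followed the mean of the 6 most closely were themselves genes of B cells. By Pearson's r over the 12 libraries on the log2(FPKM + 1) scale, given as a description over libraries that share groups and a model, genes among the nearest were Ighd, the constant region of IgD (r of 0.992), and Tnfrsf13c, the receptor for the survival factor BAFF (0.991). Cd22, Cd37, Siglecg, Blk, H2-DMb2, Fcrl1 and Fcmr were also among them, with r between 0.979 and 0.990. With group means taken off, r was between 0.981 and 0.996 for these 9 genes. Ighd ranged from 0.210 to 47.1 FPKM.

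Thymopentin and saline were then compared within each model, and the models within each treatment, by limma on log2(FPKM + 1) over all 13794 tested genes, with p-values adjusted over all of them. None of the 6 B cell genes was called in any of these 4 comparisons or in the difference between the responses. Before adjustment, too, limma gave 0 of the 6 a p under 0.05 in each of them. In TNBS colitis 0.667% of tested genes were called (0.283% higher and 0.384% lower), and none of the 9 genes was among them; 0 of the 9 had an unadjusted p under 0.05 there. Mean Cd79a there was 22.6 ± 21.5 FPKM under saline and 13.8 ± 12.6 under thymopentin (SD, n = 3), which differed by -0.45 ± 1.36 in log2 (SE; 95% interval -3.46 to 2.57; limma adjusted p = 0.936). Without TNBS saline 3 the value was -1.88, without TNBS thymopentin 3 it was 0.74, and without both it was -0.69. Within the libraries of number 1, 2 and 3, thymopentin minus saline was -0.65, -0.72 and 0.042 for Cd79a. In DSS colitis, where 17.0% were called (12.7% higher and 4.30% lower), the means were 21.1 ± 16.7 and 23.5 ± 16.3 FPKM, a difference of 0.12 in log2 with an interval of -2.89 to 3.13 (adjusted p = 0.961; -0.58 to 0.96 with 1 library left out). The median over the 6 genes was -0.31 in TNBS, beside 0.03 over all tested genes, and 0.11 in DSS, beside 0.12. The interval was narrowest for Cr2, at -1.83 to 0.97 in TNBS and -1.26 to 1.54 in DSS. The intervals thus hold both a fall and a rise of more than 1 on the log2 scale for each of the 6 genes in DSS, and for all but Cr2 in TNBS. With the number as a block the TNBS intervals narrowed, to -1.997 to 1.11 for Cd79a (adjusted p = 0.83) and -1.32 to 0.46 for Cr2 (adjusted p = 0.697), and no call changed.

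Between DSS saline and TNBS saline, where 46.6% of tested genes were called (15.2% higher and 31.5% lower), the 6 B cell genes had log2 fold changes between -0.32 (Cr2) and 0.65 (Cd79b), with adjusted p between 0.683 and 0.927. Without TNBS saline 3 and TNBS thymopentin 3, an alternative chosen after the values had been seen, Cd79a, Cd79b, Ms4a1, Pax5 and Cxcr5 changed sign, with Cd79a at -0.93 (adjusted p = 0.436; 0.291 to 0.969 over its alternatives). Cr2 stood at -1.06 without these libraries (adjusted p = 0.0541). Between DSS thymopentin and TNBS thymopentin, where 27.5% were called (11.0% higher and 16.5% lower), the values ran from 0.25 (Cr2) to 1.07 (Cd79a), and without the same pair of libraries all 6 changed sign, Cd79a to -0.12. Other single libraries turned signs too. Without DSS saline 2, Cd79a (-0.092), Ms4a1, Pax5 and Cxcr5 were lower in DSS saline, without TNBS saline 1 or 2 Cr2 was 0.0077 or 0.090, and without DSS thymopentin 2 Pax5 and Cxcr5, or without DSS thymopentin 3 Cr2, turned between the thymopentin groups. No direction between the models held for these genes across the libraries left out.

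**Figure D2:**
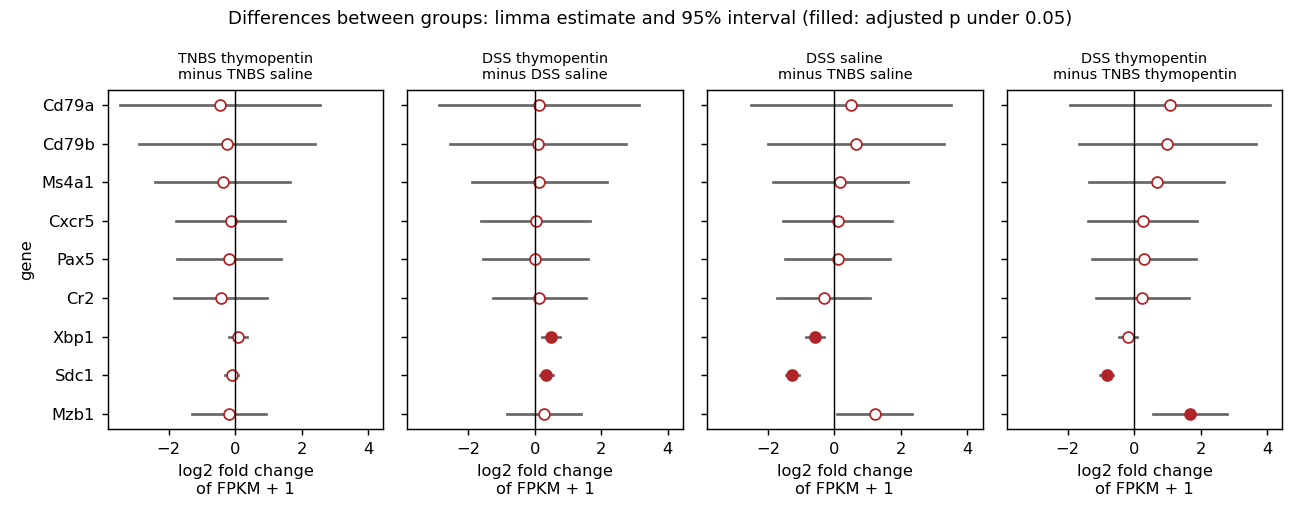
Differences in log2(FPKM + 1) between groups for the 9 genes in 4 comparisons: points are limma estimates, bars their 95% intervals, and filled points have an adjusted p under 0.05. The 6 B cell genes have intervals that all span 0, while Sdc1, Xbp1 and Mzb1 hold the 6 filled points.

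The plasma cell genes did not form 1 pattern. Mzb1, which helps antibody assembly in the endoplasmic reticulum, was measured at 6.05, 10.3 and 1.42 FPKM in TNBS saline and at 3.93, 7.17 and 2.21 in TNBS thymopentin. It was 13.0, 15.2 and 9.45 FPKM in DSS saline and 11.5, 18.8 and 16.2 in DSS thymopentin. Within each group its lowest library was the one lowest for B cell genes, but the DSS libraries with the least Cd79a, saline 3 and thymopentin 1, still held more Mzb1 than any TNBS library other than TNBS saline 2. Per unit of Cd79a, Mzb1 ran from 0.236 in TNBS saline 2 to 3.02 in TNBS thymopentin 3.

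Mzb1 was higher in DSS than in TNBS colitis under thymopentin. The means were 15.5 ± 3.68 FPKM (SD, n = 3) in DSS thymopentin and 4.43 ± 2.52 in TNBS thymopentin, groups that did not overlap, as was so for 46.2% of tested genes (log2 fold change 1.68 ± 0.50, limma adjusted p = 0.0319). Without TNBS thymopentin 1 or 3 or DSS thymopentin 2 or 3 the call was lost (adjusted p up to 0.112; 0.00124 to 0.112 over its alternatives). Under saline the means were 12.5 ± 2.88 and 5.92 ± 4.43 FPKM, the groups overlapped, and the difference of 1.21 ± 0.50 did not pass (adjusted p = 0.0725; 0.00102 to 0.248 over its alternatives). It did pass with a replicate block (0.0214), but that block joined TNBS and DSS libraries of the same number, which no label pairs. The difference also passed with quantile normalization (0.045), median-ratio rescaling (0.0435) and array weights (0.0342). Without TNBS saline 2, the TNBS library with the most B cell RNA, it was 1.69 (adjusted p = 0.018), and without TNBS saline 3 it was 0.58. With the mean level of the 6 B cell genes in each library as a covariate, an alternative added after the values had been seen, the difference under thymopentin was 1.38 ± 0.19, and that under saline passed as well (adjusted p = 0.00124 and 0.00102). Thymopentin against saline gave -0.19 ± 0.50 in TNBS and 0.28 ± 0.50 in DSS for Mzb1, neither passing (adjusted p = 0.922 and 0.730). The genes nearest to Mzb1 by r over the 12 libraries were Lax1, an adaptor of lymphocyte signalling (0.987), Itgb7, an integrin chain of gut homing (0.976), and the light chain segment Iglj2 (0.976).

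**Figure D3:**
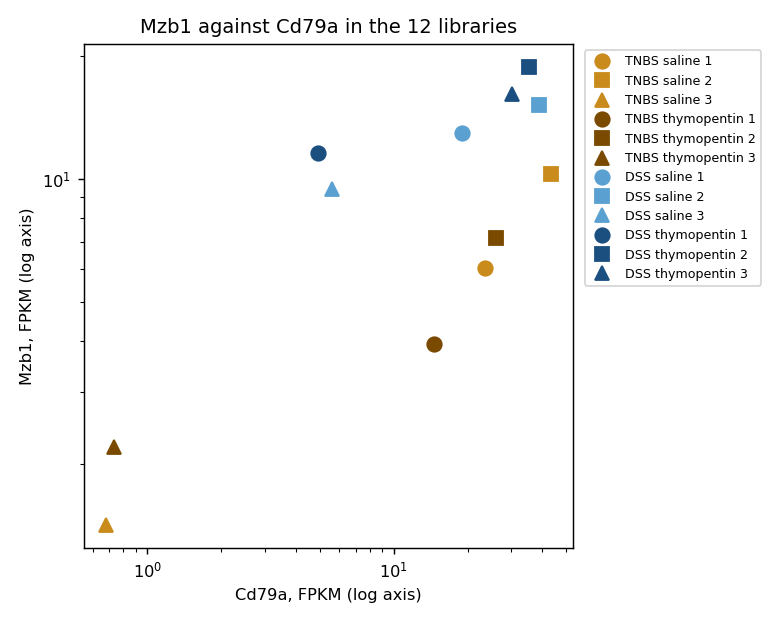
Mzb1 against Cd79a in FPKM, both axes log, 1 point per library, with colour for the group and shape for the replicate number. DSS libraries lie above TNBS libraries of like Cd79a: at 5.63 and 4.93 FPKM of Cd79a, DSS saline 3 and DSS thymopentin 1 hold 9.45 and 11.5 FPKM of Mzb1, while TNBS thymopentin 1 holds 3.93 at 14.6 FPKM of Cd79a.

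Xbp1, the transcription factor of the secretory programme, varied less within groups than the B cell genes did. Its residual SD was 0.154, above that of 42.0% of tested genes. Xbp1 was measured at 25.7, 27.2 and 26.9 FPKM in TNBS saline, and at 24.8, 35.4 and 25.3 in TNBS thymopentin. In DSS it was 16.6, 18.9 and 16.8 FPKM with saline and 26.0, 24.6 and 23.5 with thymopentin. DSS saline was the low group, below every other library. The gene-level values do not separate the spliced from the unspliced form of Xbp1.

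Mean Xbp1 in DSS colitis rose with thymopentin, from 17.4 ± 1.29 to 24.7 ± 1.29 FPKM (SD, n = 3), by 0.48 ± 0.12 in log2 (limma adjusted p = 0.0275). Measured from the all-gene median of 0.12 the change was 0.36. These groups did not overlap, as was so for 39.8% of tested genes. The call was lost under median-ratio rescaling (0.33, adjusted p = 0.0856) and quantile normalization (0.36, adjusted p = 0.0584), and without any 1 DSS library except saline 2 (up to 0.088; 0.00668 to 0.088 over its alternatives). DSS saline was lower than TNBS saline by -0.58 ± 0.12 (adjusted p = 0.00347), or -0.44 relative to the median of all genes at -0.14. Under thymopentin the models differed by -0.18 ± 0.12 (adjusted p = 0.301; interval -0.46 to 0.10), and in TNBS thymopentin and saline differed by 0.08 (interval -0.20 to 0.36). The responses of Xbp1 differed between models by 0.40 ± 0.18, which did not pass (adjusted p = 0.211), in a comparison that called 5.15% of tested genes (2.73% higher and 2.42% lower).

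Sdc1, the surface proteoglycan syndecan 1, separated the models without overlap and had the smallest residual SD of the 9 genes. It was 60.4, 56.5 and 58.9 FPKM in TNBS saline, 55.2, 57.6 and 51.6 in TNBS thymopentin, 22.2, 24.7 and 24.2 in DSS saline and 34.0, 29.7 and 28.0 in DSS thymopentin. Every TNBS library exceeded every DSS library, whether rich or poor in B cell RNA. Between the saline groups 56.5% of tested genes did not overlap, and between the thymopentin groups 46.2%. The residual SD of Sdc1, 0.0913, was above that of 9.39% of tested genes. DSS saline was lower than TNBS saline by -1.27 ± 0.09 (limma adjusted p = 2.01e-05), and DSS thymopentin lower than TNBS thymopentin by -0.82 ± 0.09 (adjusted p = 0.000276), calls that held in every alternative. In DSS colitis Sdc1 rose with thymopentin from 23.7 ± 1.31 to 30.6 ± 3.06 FPKM (SD, n = 3), by 0.35 ± 0.09 (adjusted p = 0.0239), or 0.23 relative to the median of all genes. Without DSS saline 1 or 3 or DSS thymopentin 1 or 2 that call was lost (up to 0.0701), as it was under median-ratio rescaling (0.20, adjusted p = 0.192), quantile normalization (0.0555) and in a fit of the DSS libraries alone (0.0716), with 0.0157 to 0.192 over its alternatives. In TNBS the change was -0.10 ± 0.09 (adjusted p = 0.721), and the responses differed by 0.45 ± 0.12 (adjusted p = 0.0657).

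**Figure D4:**
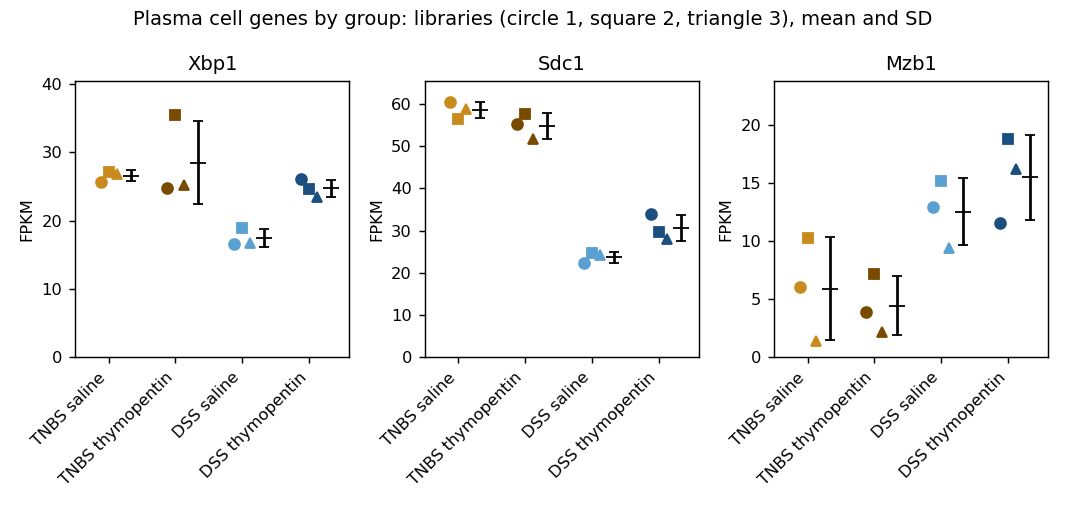
Levels of Xbp1, Sdc1 and Mzb1 in FPKM by group, with libraries 1, 2 and 3 as circle, square and triangle and the mean and SD (n = 3) in black. Sdc1 is 51.6 FPKM or more in TNBS and 34.0 or less in DSS, Xbp1 is lowest in DSS saline, and Mzb1 is highest in DSS thymopentin 2 at 18.8 FPKM.

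Over the 12 libraries r was 0.803 between them, 0.016 between Xbp1 and the mean of the B cell genes, and -0.174 between Sdc1 and that mean. With group means taken off these were 0.54, 0.30 and -0.075. For Mzb1 and that mean r was 0.721, and 0.942 with group means taken off. The named genes nearest to Xbp1 were Ctnnbip1, an inhibitor of beta-catenin (0.976), Bzw2 (0.965) and Atoh1, the factor that commits gut epithelium to secretory cells (0.964). Those nearest to Sdc1 were P2rx4, an ion channel opened by ATP (0.992), the pseudogene Ldha-ps2 (0.989) and Pof1b (0.989). Taking off group means left r at 0.92, 0.88 and 0.84 for the genes nearest to Xbp1, in that order. For those nearest to Sdc1 it left 0.79, 0.86 and 0.83. Of 12 epithelial markers, 6 were lower and 1 higher in DSS saline than in TNBS saline, where 46.6% of all tested genes were called and 31.5% lower, with Cdh1 (E-cadherin) at -0.85 and Muc2 (the mucin of goblet cells) at -1.86. With thymopentin in DSS, Epcam and Cdh1 rose by 0.44 and 0.39, and the other 10 were not called, a share like the 17.0% of all tested genes. The 12 markers summed to 5588 to 6863 FPKM in DSS saline, 6057 to 6916 in DSS thymopentin, 6758 to 10106 in TNBS saline and 6510.4 to 7179 in TNBS thymopentin, with none at 0 throughout a group. Smooth muscle markers moved with thymopentin in DSS too: Tagln fell by 1.08 and Cnn1 by 1.38, Des fell as well, and the other 3 of 6 were not called. Of all tested genes 4.30% were called lower in that comparison. The 6 muscle markers summed to 2856 to 3403 FPKM in DSS saline and 1241 to 1885 in DSS thymopentin. The part of epithelial and muscle RNA in the Xbp1 and Sdc1 values was not tested.

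Of a list of 22 other B cell genes, 21 passed the filter. Thymopentin called none of the 21 in TNBS (median -0.27), beside 0.667% of all tested genes, and 1 in DSS (median 0.01), beside 17.0%. The gene called in DSS was Ralgps2, an exchange factor, which rose from 2.43 ± 0.302 to 3.83 ± 0.391 FPKM. DSS saline was lower than TNBS saline for 2 of the 21, Ralgps2 (-0.84) and Blnk, an adaptor below the B cell receptor (-0.55). Of all tested genes 31.5% were called lower in that comparison. Blnk did not share the lows of the members, with 16.5 FPKM in TNBS saline 3 and 16.4 in TNBS saline 2. Ralgps2 fell far less than the members in TNBS saline 3, with 5.21, 6.01 and 4.23 FPKM in TNBS saline 1, 2 and 3. In DSS saline Ralgps2 was 2.33, 2.19 and 2.77 FPKM, highest in the library with the least B cell RNA of that group. Pou2af1, a coactivator of immunoglobulin genes kept in plasma cells, was 5.52, 10.7 and 0.543 FPKM in TNBS saline and 13.4, 21.7 and 6.69 in DSS saline, without passing (adjusted p = 0.135).

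Genes of follicles and germinal centres were partly detected, 10 of 17 passing the filter. With thymopentin none of the 10 was called in either model, beside 0.667% of all tested genes in TNBS and 17.0% in DSS. In DSS the median of the 10 was -0.65, beside 0.12 over all tested genes, with Madcam1, the address molecule for gut homing, at -0.89 ± 0.28 (adjusted p = 0.0501) and Ccl19, a chemokine of the T cell zone, at -1.65 ± 0.65 (adjusted p = 0.102). In the authors' deposited table for DSS, Cxcl13, the ligand of Cxcr5, stood at -1.38 in log2 (FDR 2.99e-06) and Ccr7, a homing receptor of lymphocytes, at -1.76 (FDR 7.05e-05). The authors also listed Ccl21a at -1.19 (FDR 6.12e-22), Madcam1 at -1.38 (FDR 0.00214) and Ccl19 at -2.62 (FDR 0.163). Ccl21a was 200, 250 and 200 FPKM in DSS saline and 93.5, 109 and 109 in DSS thymopentin. By limma Cxcl13 was -1.21 ± 0.91 (adjusted p = 0.378), with 47.4, 76.9 and 53.2 FPKM in DSS saline and 15.1, 33.7 and 28.4 in DSS thymopentin. Cxcl13 was 2.07 and 1.94 FPKM in TNBS saline 3 and TNBS thymopentin 3, and between 12.7 and 35.0 in the other TNBS libraries. DSS saline was higher than TNBS saline for 3 of the 10: Ccl21a (4.33), Madcam1 and Bcl6, the master regulator of the germinal centre (0.50). Of all tested genes 15.2% were called higher there. None of the 9 members was among the authors' deposited selections of 1173 genes for TNBS and 2326 for DSS.

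Of 19 other genes of plasma cells and of the secretory pathway, 17 were tested. With thymopentin 1 of the 17 was called in TNBS, beside 0.667% of all tested genes, and 2 in DSS, beside 17.0%. The gene called in TNBS was lower: Prdm1, which encodes BLIMP1, the repressor that ends the B cell programme, went from 2.99, 2.48 and 2.76 FPKM to 0.826, 1.39 and 0.890 (log2 fold change -0.89 ± 0.12, adjusted p = 0.00994). Prdm1 is also expressed by other cells of the gut, and its response differed from that in DSS by 0.81 ± 0.17 (adjusted p = 0.0281). In DSS, Txndc5, a disulfide isomerase, rose from 21.8 ± 6.96 to 51.5 ± 9.16 FPKM, and Cd38, an enzyme of NAD breakdown, fell from 108 ± 7.93 to 66.7 ± 3.35. Tnfrsf17, which encodes BCMA, the survival receptor of plasma cells, was higher in DSS than in TNBS colitis by 1.12 ± 0.23 with saline and 1.58 ± 0.23 with thymopentin (adjusted p = 0.00297 and 0.0017). Of the 17 genes, 2 were called higher and 4 lower in DSS saline than in TNBS saline, where 46.6% of all tested genes were called, with Sdf2l1 higher and Txndc5, Prdm1, Edem1 and Sec11c lower.

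Of 10 immunoglobulin constant genes tested, 7 were higher in DSS saline than in TNBS saline (15.2% of all tested genes were) and 7 in DSS thymopentin than in TNBS thymopentin (11.0%), none lower, and limma called none with thymopentin in either model, with 0 at an unadjusted p under 0.05. Ighg2c was among the 7 in both. Igha, the constant region of IgA, was 297, 399.6 and 96.5 FPKM in TNBS saline against 1242, 965 and 1029 in DSS saline (log2 fold change 2.24 ± 0.49, adjusted p = 0.00381). Ighd was 24.6, 47.1 and 0.210 FPKM against 11.9, 36.3 and 4.42, following the B cell genes (adjusted p = 0.900). Constant genes can share reads with near-identical copies, and their values are uncertain to that extent. Ligands and receptors of survival and recruitment, 6 of 10 tested, included Ccl28, the epithelial chemokine for IgA plasma cells, which rose with thymopentin in DSS by 0.44 ± 0.12 (adjusted p = 0.0352). In TNBS the Ccl28 difference was also 0.44 ± 0.12, with 43.1 FPKM under thymopentin and 31.4 under saline, but was not called (limma adjusted p = 0.143). Ccl28 was lower in DSS saline than in TNBS saline by -0.62, as was Tnfsf13 (APRIL) by -1.99, while Cxcl12 was higher by 1.40.

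**Figure D5:**
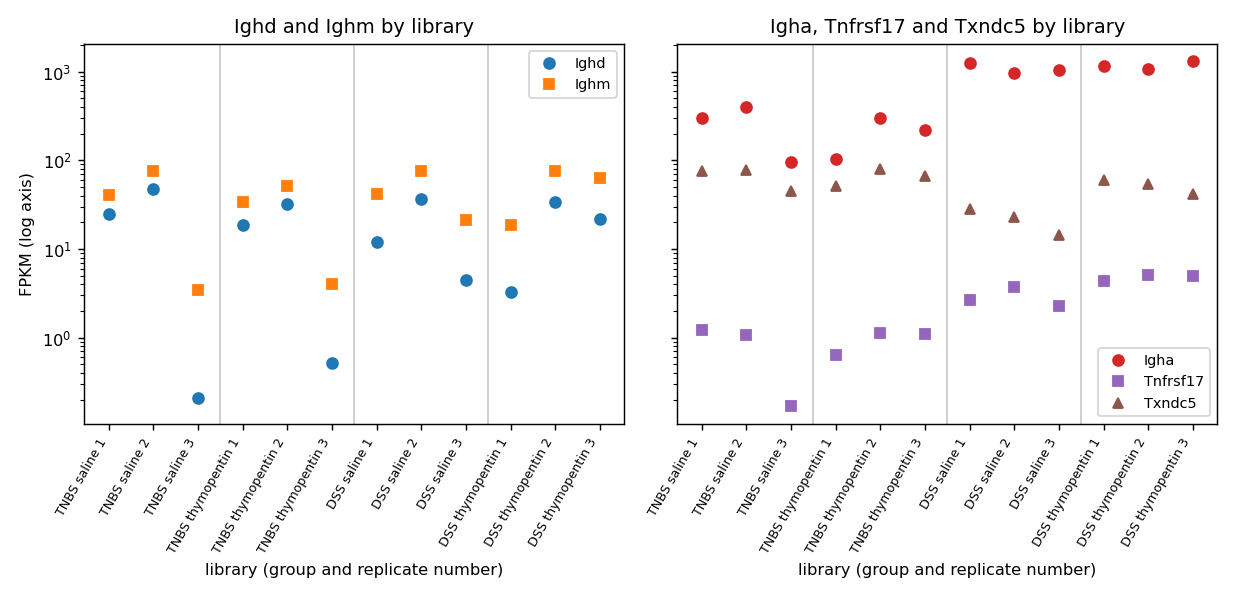
Levels by library, in FPKM on a log axis, of the B cell genes Ighd and Ighm (left) and of Igha, Tnfrsf17 and Txndc5 (right), 1 point per library. On the left the lows fall in single libraries of each group; on the right Igha is at most 399.6 FPKM in TNBS saline and at least 965 in DSS saline.

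Markers of other cells moved with the B cell lows only in part. The 11 T cell markers summed to 8.35 FPKM in TNBS saline 3 and 4.63 in TNBS thymopentin 3, against 11.9 to 24.4 in the other TNBS libraries. In DSS saline 3 they summed to 57.2 FPKM, between the 53.3 and 82.0 of the other saline libraries, and in DSS thymopentin 1 to 45.3, the lowest of its group. Between the saline groups 15.2% of all tested genes were called higher in DSS, and the median over all of them was -0.14. Of 10 tested T cell markers 9 were higher in DSS saline, with a median of 1.42, and the median over the B cell genes was 0.13. Without TNBS saline 3 and TNBS thymopentin 3 these medians were 1.31 and -0.71. The 9 myeloid markers summed to 65.7 to 176 FPKM in TNBS saline and 270 to 375 in DSS saline, and all 7 tested were higher in DSS saline. In the low library TNBS thymopentin 3 the myeloid sum was 61.8 FPKM, against 125 and 128 in TNBS thymopentin 1 and 2, and in TNBS saline 3 it was 65.7 against 130.4 and 176. Smooth muscle markers summed to 2288 FPKM in TNBS saline 3 against 1446 and 746 in TNBS saline 1 and 2, and epithelial markers to 10106 against 8220 and 6758. In TNBS thymopentin 3 the epithelial sum was the lowest of its group, 6510.4 against 6627 and 7179 FPKM, and the smooth muscle sum the highest, 2119 against 1589 and 1548. In the low DSS libraries, saline 3 and thymopentin 1, the smooth muscle sum was 3356 and 1780 FPKM, each between those of the other libraries of its group. No marker of these lists was at 0 in every library of a group, and their part in the B cell values was not tested.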

How the data were processed

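RNA of mouse colon was sequenced in 12 strand-specific TruSeq libraries, per the labels' protocols. Per the file headers, the authors deposited FPKM for all genes; for genes they selected they also deposited log2 values per library, and beside them a p-value, an FDR and the fold in log2. Named without role or order in the submitters' processing notes are build mm9, DESeq 1.22.1, Cuffnorm, STAR 2.5 and FastQC. Of the gene identifiers 99.7% matched current names; symbols are as deposited.

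Groups came from the treatment labels and replicate numbers from the titles; no label says that libraries of a group are separate animals, so p-values measure the spread between these libraries. Members and lists were chosen with earlier results of these data known. The 13794 genes whose FPKM averaged 1 or more were fitted as log2(FPKM + 1) with limma 3.58.1 (R 4.3.3): 4 group means, 8 residual degrees of freedom, empirical Bayes trend, two-sided tests, Benjamini-Hochberg adjustment over all tested genes, calls at 0.05. This scale understates changes of low genes. An exact test of 3 against 3 cannot go below 0.1 and was not used. The fit was tested on simulated data. All 9 members are named; of other lists, up to 4 called genes by p or the 2 nearest, with the 10 genes (3 for a plasma cell gene) of highest r; Cxcl13, Pou2af1, Ighd and further list genes were added after their values were seen. A gene the rule also names is not reported here. In TNBS, deviations of libraries with the same number correlated at 0.124, 0.268 and 0.476. Across numbers, r was 0.287 for saline 2 and thymopentin 1, above the 0.268 of the number 2 libraries. It lay between -0.442 and 0.081 for the remaining combinations, so the evidence for pairs of number 1 and 2 is weak. The main fit left the numbers out. They served as pairs only in the alternative with a block and in the differences within a number. No label says what they stand for. Python 3.11.15, pandas 2.3.3, numpy 2.4.6 and matplotlib 3.10.9 were used.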

Additional observations from a re-analysis of the deposited data

Results flagged for a closer look

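2 of the genes named beside the members responded to thymopentin differently in the models, by the test of the difference itself. They were 1 of 17 tested plasma cell and secretory genes and 1 of 12 epithelial markers. The other lists had none, and over all tested genes 5.15% were called. For Prdm1 the response in DSS minus that in TNBS was 0.81 ± 0.17 (limma adjusted p = 0.0281, n = 3 libraries a group). For Epcam it was 0.74 ± 0.17 (adjusted p = 0.0348). None of the 9 members passed this test.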

How the results depend on the processing

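Under every alternative tried the Sdc1 and Xbp1 differences between DSS saline and TNBS saline, and the Sdc1 difference between the thymopentin groups, kept their direction and stayed under the threshold. The count of members called for thymopentin in DSS, 2 as reported, was 1 with no filter on low values, 0 with quantile normalization, 0 with median-ratio rescaling, 1 in a fit of the DSS libraries alone, and 0 to 2 with 1 library left out. The difference of responses called 1 member (Sdc1) with array weights and 0 to 1 with 1 library left out. Between the saline groups array weights called 4 and leaving out 1 library 2 to 3, and between the thymopentin groups no filter left 1 and leaving out 1 library 1 to 2. Thymopentin in TNBS called 0 members throughout. With a replicate block the DSS count was 1, Sdc1 having an adjusted p of 0.0735, in a model whose libraries share only a number (correlations -0.136, 0.0427 and -0.140); in TNBS the pairing changed no call of a member. Mzb1 between the saline groups passed with both rescalings and array weights. It also passed with a block of the same numbers across the models, which no label pairs.

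For the B cell genes no call came or went except Cr2 with array weights (saline groups, adjusted p = 0.0175), but signs did. In DSS thymopentin against saline, Pax5 was -0.048 with a pseudocount of 0.1 and -0.075 with 0.01. Quantile normalization gave -0.011 for Cd79b, -0.091 for Pax5 and -0.095 for Cxcr5, and median-ratio rescaling -0.029 for Cd79a, -0.046 for Cd79b, -0.076 for Pax5 and -0.071 for Cxcr5. Between the saline groups Cr2 was 0.067 and 0.53 with those pseudocounts, and array weights gave -1.02 for Cd79a, -0.73 for Cd79b, -0.85 for Ms4a1, -0.52 for Pax5 and -0.52 for Cxcr5. Without TNBS saline 3 and TNBS thymopentin 3 together it was -0.93 for Cd79a, -0.68 for Cd79b, -0.75 for Ms4a1, -0.56 for Pax5 and -0.56 for Cxcr5 between the saline groups and -0.12 for Cd79a, -0.054 for Cd79b, -0.091 for Ms4a1, -0.26 for Pax5, -0.25 for Cr2 and -0.37 for Cxcr5 between the thymopentin groups. With 1 library left out the sign turned within these ranges: for thymopentin in TNBS, Cd79a -1.88 to 0.74, Cd79b -1.58 to 0.81, Ms4a1 -1.29 to 0.40, Pax5 -0.84 to 0.37, Cr2 -1.17 to 0.070, Cxcr5 -0.80 to 0.49, Xbp1 -0.082 to 0.17 and Mzb1 -0.82 to 0.29; in DSS, Cd79a -0.58 to 0.96, Cd79b -0.47 to 0.69, Ms4a1 -0.46 to 0.67, Pax5 -0.42 to 0.53, Cr2 -0.17 to 0.50 and Cxcr5 -0.42 to 0.52; for the difference of responses, Cd79a -0.62 to 1.998, Cd79b -0.71 to 1.68, Ms4a1 -0.26 to 1.42, Pax5 -0.36 to 0.85, Cxcr5 -0.46 to 0.82 and Mzb1 -0.0072 to 1.10. Between the saline groups the ranges were Cd79a -0.93 to 1.44, Cd79b -0.68 to 1.51, Ms4a1 -0.75 to 0.81, Pax5 -0.56 to 0.61, Cr2 -1.06 to 0.090 and Cxcr5 -0.56 to 0.62, and between the thymopentin groups Cd79a -0.12 to 1.91, Cd79b -0.054 to 1.67, Ms4a1 -0.091 to 1.21, Pax5 -0.26 to 0.81, Cr2 -0.25 to 0.61 and Cxcr5 -0.37 to 0.75. The cause was not tested.

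Over all genes, thymopentin in TNBS called 92, against 44 with no filter, 6 in a fit of the TNBS libraries alone, 2547 with array weights, 45 without the third TNBS libraries, 212 with the B cell covariate and 41 to 116 with 1 library left out. In DSS it called 2346, against 1447 at a mean of 5 FPKM or more, 4025 with array weights and 923 to 2505 with 1 library left out. The difference of responses called 710, against 355, 385, 2889 and 1154 with no filter, a mean of 5, array weights and the covariate, and 176 to 764 with 1 left out. The saline groups gave 6431 (3661 at a mean of 5 and 8799 with array weights) and the thymopentin groups 3799 (2052 to 3999 with 1 left out). Of the calls for thymopentin in DSS 74.7% were higher, but 52.5% with quantile normalization and 44.0% with median-ratio rescaling; for the difference these were 53.0%, 41.1% and 33.8%, and for the saline groups 32.5%, 43.0% and 50.9%. Between the thymopentin groups 40.1% were higher and 50.9% with median-ratio rescaling. In the main fit the 95% intervals of the B cell genes for thymopentin against saline reached at least 0.97 to either side of 0. With the number as a block they were narrower in TNBS, as at -1.32 to 0.46 for Cr2. The width of these intervals limits what these libraries can show for the B cell genes.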
